A study of Rattus norvegicus with 2 samples.

Results

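The insulin signalling components described here were 8 rat genes: Insr, Irs1, Irs2, Pik3r1, Pik3ca, Akt1, Akt2 and Foxo1. Every probe set whose single gene symbol in the platform annotation was one of these names was taken, which gave 15 probe sets of the 15923 on the array. Insr, Irs1, Irs2 and Pik3r1 had 1 probe set each, Pik3ca had 2, and Akt1, Akt2 and Foxo1 had 3 each. Liver RNA had been hybridised to 2 oligonucleotide arrays, 1 from the high-fat diet and 1 from the low-fat diet. The rats were of the SD strain, and both diets were based on AIN93G, a purified rodent diet. The labels give an age of 4 weeks and 9 weeks of feeding. That age is shorter than the feeding, so it is not taken as the age at collection. The sources used here do not give the sex of the rats, the fat content of the diets, the feeding state at collection or the number of animals behind each RNA.

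Insulin lowers glucose output from the liver and raises fat synthesis through a chain of proteins. The receptor phosphorylates the Irs adaptors, which bring phosphoinositide 3-kinase to the membrane, and its lipid product lets the Akt kinases be activated. Akt phosphorylates FoxO1 and keeps this transcription factor out of the nucleus, so that genes of gluconeogenesis are transcribed less. Much of this signalling runs through phosphorylation, which an RNA array does not measure.

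Each diet had a single array, so nothing could be tested between the diets, and the values describe these 2 arrays with no p-value. The array medians, 14 on the high-fat array and 15.7 on the low-fat array, served as floors for detection. A probe set was called measured if the average of its log2 signals was no lower than the average of the log2 floors, which held for 7864 probe sets. Log2 ratios are high-fat over low-fat and were shifted so that the measured probe sets had a median of 0 (the uncentred median was -0.117). The spread of these ratios depended on signal: their robust SD (from the median absolute deviation) was 0.487 in the dimmest of 10 equal bins and 0.171 in the brightest. This spread is between probe sets within 1 pair of arrays and says nothing about the spread between animals.

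Most of the measured insulin signalling genes showed small differences between the arrays. Of the 15 probe sets, 3 lay within 1.5 times the array median on both arrays, and the brightest probe sets of Akt1, Pik3r1, Foxo1 and Akt2 lay further above it. Of the 8 genes, 7 were measured, and all but Irs1 were among them. On the brightest measured probe set of each gene, 6 of the 7 were lower on the high-fat array and 1, Pik3ca, was higher. Of all 6012 measured genes, 3008 were lower. The median log2 ratio of the 7 genes was -0.19, against 0.0 over all measured genes. None of the 6 lower genes was past 2-fold. Pik3ca was past it by its measured ratio (2.10-fold) but not by its bound (at least 1.82-fold), since its low-fat signal was below the floor. By measured ratios, bounds not applied, 1.71% of all measured genes were past 2-fold, 0.848% higher and 0.865% lower, and nothing is read from this share for Pik3ca. In all, 9 probe sets were above the floor on both arrays, 2 on the high-fat array only and 4 on neither.

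**Figure D1:**
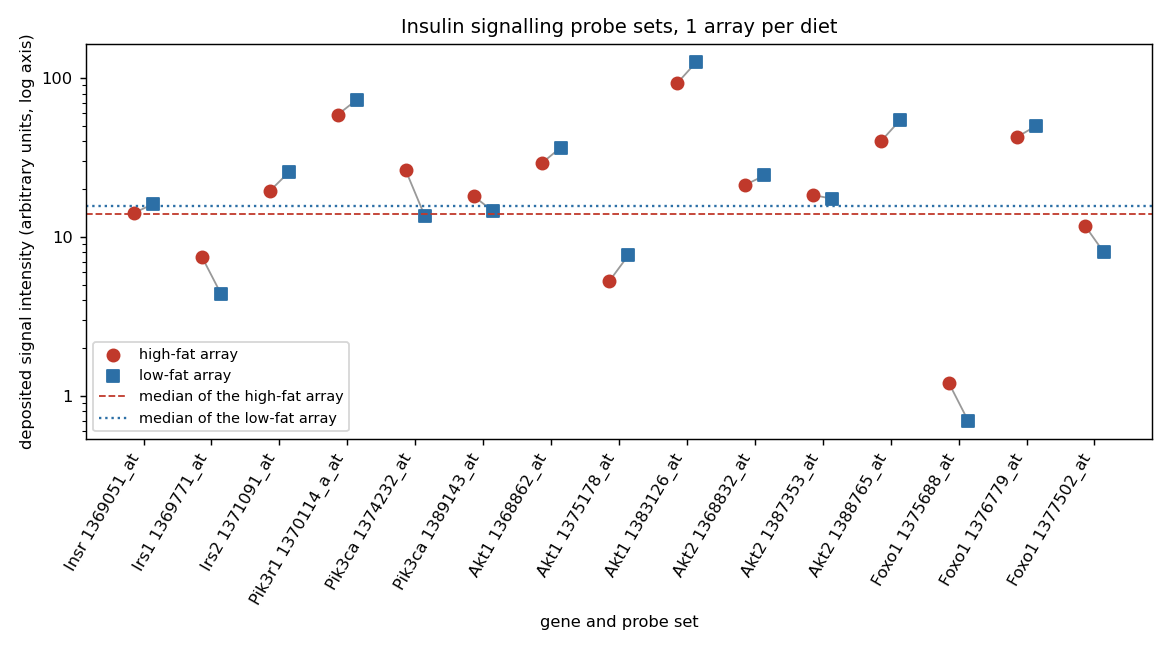
Deposited signal intensity (log axis) of each of the 15 probe sets on the high-fat array (circles) and the low-fat array (squares), 1 array per diet, with each array's median as a line. Both Pik3ca probe sets lie above the median line on the high-fat array and below it on the low-fat array, and 4 probe sets lie below the medians on both.

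The receptor gene Insr sat at the array medians. Insr (1369051_at) had a signal of 14.2 on the high-fat array and 16.1 on the low-fat array, which is 1.01 and 1.03 times the median of each array. The log2 ratio was -0.06, well inside the robust SD of 0.487 for probe sets of like signal. A difference within that spread was not detectable at this signal.

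The adaptor genes differed in whether they were measured at all. Irs1, the adaptor best known from muscle and fat, had signals of 7.5 on the high-fat array and 4.4 on the low-fat array. Both were below the floors, so no fold is given for it. Irs2, an adaptor with a large part in liver insulin action, was above both floors, at 19.5 on the high-fat array and 25.6 on the low-fat array. Its log2 ratio of -0.28 was 0.66 times the robust SD of 0.42 at that signal. The adaptor genes therefore gave 1 low-signal ratio inside the spread and 1 gene below both floors.

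Phosphoinositide 3-kinase is a dimer, and its subunit genes Pik3r1 and Pik3ca differed in sign, with Pik3r1 inside the spread. Pik3r2, another regulatory subunit gene, was at 0.31, the sign of Pik3ca. Pik3r1, which encodes the p85 alpha regulatory subunit, had signals of 58.9 on the high-fat array and 73.1 on the low-fat array, for a log2 ratio of -0.19 against a robust SD of 0.294. The suffix of its probe set (1370114_a_at) marks a design that matches several transcripts of the gene, so the isoforms of Pik3r1 cannot be told apart. Pik3ca, which encodes the p110 alpha catalytic subunit, had signals of 26.3 and 18.1 on the high-fat array for its probe sets 1374232_at and 1389143_at, against 13.6 and 14.6 on the low-fat array. Both low-fat signals were below the floor of that array, so Pik3ca counted as measured through its high-fat signals alone.

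The ratio of Pik3ca was therefore a bound. Against the low-fat floor, Pik3ca had at least 1.82-fold more signal on the high-fat array by 1374232_at and at least 1.25-fold more by 1389143_at. The measured log2 ratios, which rest on those low-fat signals, were 1.07 and 0.43, with the same sign. The robust SD at that signal was 0.487, so the smaller ratio lay inside the spread. The larger was 0.86 with values below the floor set to it and 0.95 without centring, both under 2-fold.

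The Akt kinase genes were slightly lower on their brightest probe sets. Akt1 (1383126_at) had 93.2 on the high-fat array and 126.4 on the low-fat array, with a log2 ratio of -0.32, which is 1.46 times the robust SD of 0.221. Its probe set 1368862_at had 29.1 on the high-fat array and 36.5 on the low-fat array, a log2 ratio of -0.21. These ratios differed by 0.11. Over the 696 genes that had more than 1 measured probe set, the SD of the difference between the brightest and the next was 0.417, and 56.9% of the pairs had the same sign. The last Akt1 probe set, 1375178_at, was below both floors, at 5.3 on the high-fat array and 7.7 on the low-fat array. That signal carries no fold. The 2 measured Akt1 probe sets thus had negative log2 ratios, and they kept this sign under the alternatives run.

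Akt2, the Akt form most tied to glucose handling by insulin, went both ways across its probe sets. The brightest, 1388765_at, had 40.2 on the high-fat array and 54.5 on the low-fat array, a log2 ratio of -0.32 against a robust SD of 0.313. Probe set 1368832_at had 21.3 on the high-fat array and 24.4 on the low-fat array (-0.08). Probe set 1387353_at had 18.4 on the high-fat array and 17.4 on the low-fat array (0.20). These last 2 were annotated to the same source sequence, and their ratios of opposite sign differed by 0.28. The ratios of all 3 Akt2 probe sets spanned 0.52, beside the SD of 0.417 between probe sets of 1 gene. For Akt2 the difference between the diets was thus no larger than the difference between its own probe sets.

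Foxo1, the transcription factor that Akt inactivates, was measured on 1 of its 3 probe sets. Foxo1 (1376779_at) had 42.6 on the high-fat array and 50 on the low-fat array, a log2 ratio of -0.11 against a robust SD of 0.313. The probe sets 1377502_at and 1375688_at were below both floors. They had 11.8 and 1.2 on the high-fat array, against 8.0 and 0.7 on the low-fat array, so their higher signals on the high-fat array carry no fold.

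**Figure D2:**
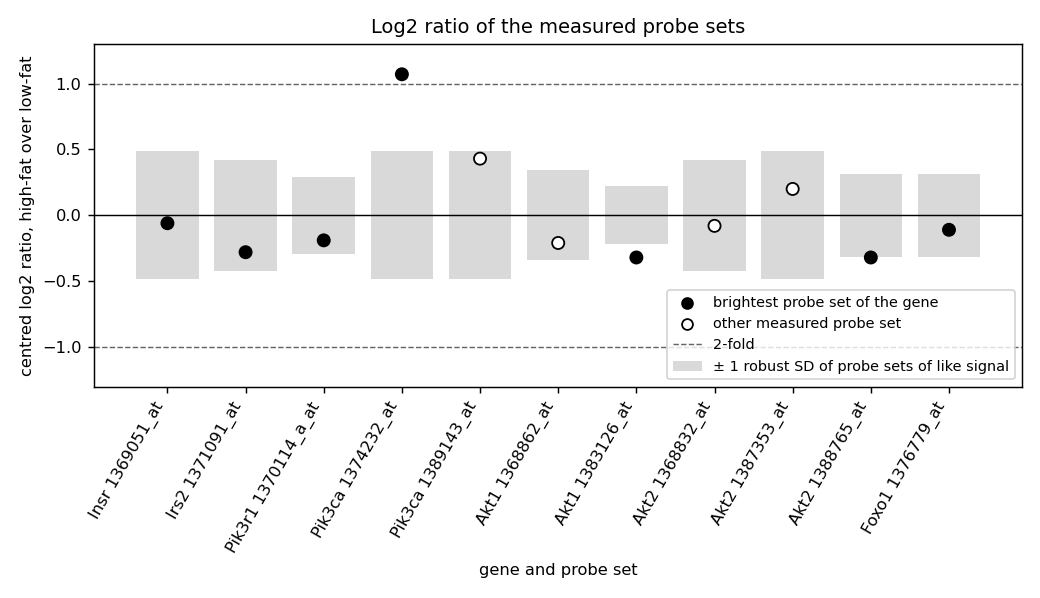
Centred log2 ratio (high-fat over low-fat) of the 11 measured probe sets, with the brightest of each gene filled. Grey bars span 1 robust SD either side of 0 for probe sets of like signal. Of the 11 points, 8 lie within their grey bar, and the 3 outside are Pik3ca 1374232_at, Akt1 1383126_at and Akt2 1388765_at.

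Of the 11 measured probe sets, 8 were lower and 3 higher on the high-fat array, and 3 lay beyond 1 robust SD for their signal. Of all measured probe sets, 32.2% lay beyond 1 such SD. Among the lower member genes, Akt1 ranked 899th and Akt2 902nd from the lowest of 6012. Irs2 followed at 1111th, Pik3r1 at 1551st, Foxo1 at 2094th and Insr at 2495th. Genes with negative ratios lie in the lower part of this ranking by definition, and these members did not reach its end.

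**Figure D3:**
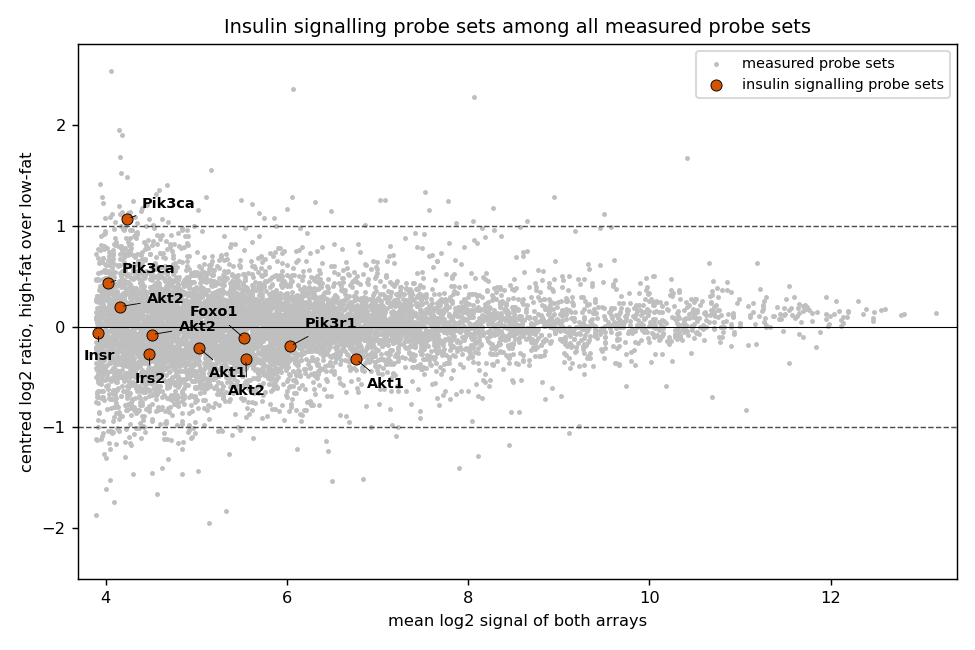
Centred log2 ratio (high-fat over low-fat) against the mean log2 signal of both arrays for the 7864 measured probe sets (grey), with the 11 insulin signalling probe sets in orange and dashed lines at 2-fold. The members sit towards the left of the signal range, where the grey cloud is widest, and 1 Pik3ca probe set, whose low-fat signal was below the floor, lies just above the upper line.

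FoxO proteins bind a core of the letters GTAAACA, and this core was looked for on both strands in the 250 bases before the transcript start that RefSeq tables (build GRCr8) give for each gene. A window was held for 7 of the 8 members, and 2 of the 7 windows, that of Insr among them, contained the core, as did 3.21% of 33469 windows. The insulin response core TGTTTTG, which opens with the same letters as the reverse complement TGTTTAC, was in none of the 7 windows and in 5.46% of all. The Insr match is shown because insulin receptor transcription is a known target of FoxO factors. The line gives 30 bases 5′ to 3′ on the gene's own strand, with the core in capitals as that reverse complement.
Insr: acgggccgcgtTGTTTACtggccggagtcg
The Insr stretch is chr12:6128885-6128914 on the minus strand, with the core beginning 100 bases before the start used. The stretch lies inside the annotated range of Insr, since that range begins further upstream than the start used. A match of these letters is a description of the sequence and was not tied to any difference between the arrays.

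The other genes of the pathway were counted in lists by role, on the brightest measured probe set of each gene. Of 71 measured genes in 6 lists of pathway proteins, 38 were higher and 33 lower on the high-fat array, with a median log2 ratio of 0.02. Of the 71, 1 was past 2-fold, Nras, beside 1.71% of all measured genes, and nothing is read from this count. The low-fat signal of Nras, 16.4, was close to the floor of 15.7.

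Receptor and adaptor genes were evenly split, with 5 of 10 measured genes lower and 5 higher. The split was 8 lower and 2 higher without centring, where 4002 of all 6012 measured genes were lower and 1996 higher. Cbl, a ubiquitin ligase that also acts as an adaptor, had 12.8 on the high-fat array and 25.6 on the low-fat array. Its high-fat signal was below the floor, so Cbl was at least 1.69-fold lower. Sh2b1, an adaptor that binds the receptor, was at -0.30 on its brightest probe set, and its other measured probe set had 15.3 on the high-fat array and 14.6, below the floor, on the low-fat array. Enpp1, an inhibitor of the receptor, was at 0.29, and Ceacam1, which promotes insulin clearance in liver, at 0.22 with 0.16 on a second probe set.

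The other phosphoinositide 3-kinase genes had smaller ratios than Pik3ca on its brightest probe set. Pik3r2, encoding the p85 beta regulatory subunit, was at 0.31, and Pik3c3, the class III enzyme of autophagy, at 0.20. Pik3c2g, a class II enzyme expressed in liver, was at -0.49, with 18.2 on the high-fat array and 27.8 on the low-fat array. Pik3r4, a partner of Pik3c3, was at -0.01, and at 0.03 with quantile normalization. These 4 were the measured genes of this list, and none was past 2-fold.

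Genes listed as inhibitors of insulin signalling were higher in 11 of 15 measured genes, with a median of 0.10 (-0.02 without centring). That count was 7 of 15 without centring and 8 of 15 with centring on hybridization controls. Of all 6012 measured genes, 3004 were higher after centring and 1996 without it. Socs2, a suppressor of cytokine signalling, had 29.7 on the high-fat array and 17.9 on the low-fat array (0.85). Ppp2ca, a catalytic subunit of protein phosphatase 2A, had 41.4 on the high-fat array and 27.9 on the low-fat array (0.69). Trib1, a pseudokinase, was at least 1.52-fold lower, with a high-fat signal of 12.9 below the floor. Inppl1, the lipid phosphatase SHIP2, was at least 1.49-fold lower on its brightest probe set. Its other probe set went the other way and was at least 1.27-fold higher, with a low-fat signal of 14.7 below the floor.

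Kinases below the receptor and mTOR genes gave 11 higher and 12 lower of 23 measured. Without centring they gave 6 higher and 17 lower, where 4002 of all 6012 measured genes were lower. Sgk1, a kinase related to Akt, had 99.1 on the high-fat array and 56.6 on the low-fat array, a log2 ratio of 0.92 where the robust SD was 0.225. Tsc2, which restrains mTOR complex 1 and is inhibited by Akt, had 21.9 on the high-fat array and 45.6 on the low-fat array (-0.94). Without centring Tsc2 was the 1 gene of this list past 2-fold. Gys2, the liver glycogen synthase, had 101.9 on the high-fat array and 195.1 on the low-fat array (-0.82). Mapkap1, a subunit of mTOR complex 2, was at -0.54.

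The Ras and MAP kinase arm had 3 genes higher and 3 lower of 6 measured. Nras, a small GTPase, had 40.0 on the high-fat array and 16.4 on the low-fat array (1.40). A second probe set of Nras had a low-fat signal below the floor and was higher by at least 1.71-fold. Araf and Sos2, a kinase and an exchange factor of this arm, were at -0.43 and -0.42, and the kinase gene Map2k1 at 0.21. The FoxO family and its partners had 6 higher and 7 lower of 13. Crebbp and Crtc2, both coactivators, were at 0.59 and 0.57, Usp7, a deubiquitinase, at 0.28, and Foxo3 at -0.24, with 88.0 on the high-fat array and 112.6 on the low-fat array.

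Transcripts on the output side of the pathway were counted in 2 further lists. Genes that FoxO1 activates or insulin lowers were split, with 7 of 14 measured genes higher and 7 lower and a median of 0.02. Quantile normalization gave 4 higher and 8 lower, and 2 with exactly equal values on both arrays. Pck1, the rate-controlling enzyme of gluconeogenesis, was at 0.05, and at -0.06 without centring, and Igfbp1, a binding protein that insulin represses, at -0.01. Igfbp1 had 106.6 on the high-fat array and 116.1 on the low-fat array. Txnip and Cdkn1b, an arrestin-like protein and a cell cycle inhibitor, were at -0.84 and -0.65. Ccng2, a cyclin, was at 0.37, and Cited2, a transcriptional regulator, at 0.38 with -0.18 on a second probe set.

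Genes that insulin raises in liver were lower in 8 of 9 measured genes under each scaling run, with a median of -0.83. Of the 9, 3 were past 2-fold, all lower, where 0.865% of all measured genes were at least 2-fold lower. These 3 were the lipogenic genes Acaca, Acly and Me1, at -1.51, -1.41 and -1.26. The list was chosen with earlier results of these data known, so nothing is read from its count beside that share. A second probe set of Me1 had a high-fat signal below the floor and was lower by at least 1.46-fold. Fasn was at -0.94 on its brightest probe set and past 2-fold on its other, at -1.43. The count past 2-fold was 4 without centring, 2 with a pseudocount of 50 or the floor at the 75th percentile, and 5 with the floor at the 25th percentile or none. Srebf1, a transcription factor through which insulin acts on the lipogenic genes of this list, was the 1 higher member, at 0.66. Most members of this list also respond to carbohydrate, so the list is not specific to insulin.

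**Figure D4:**
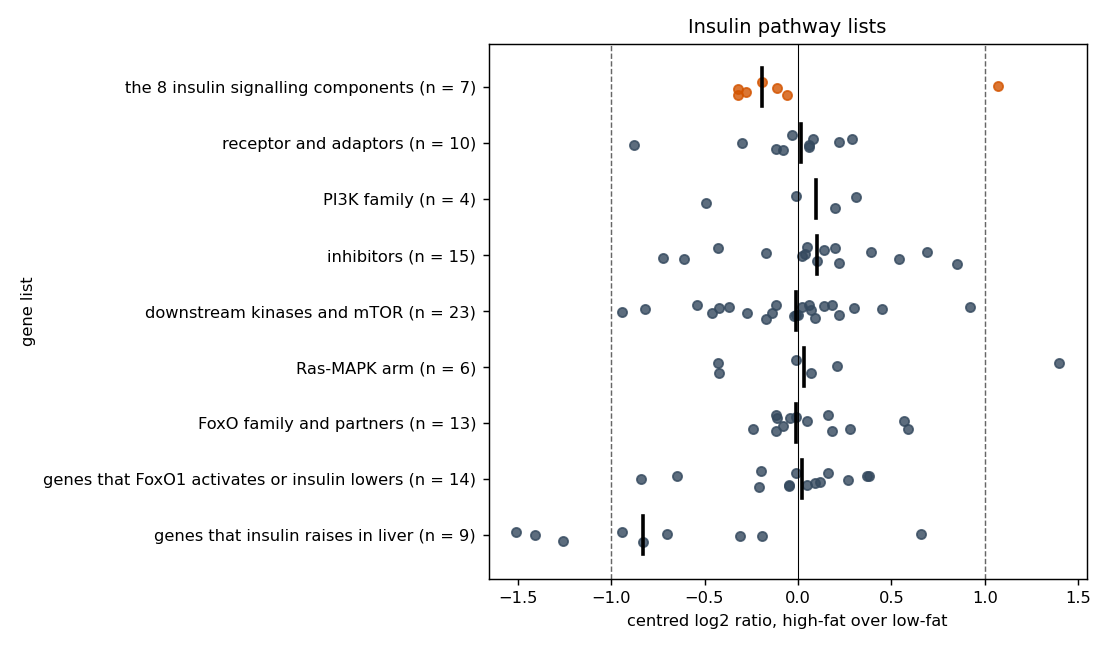
Centred log2 ratio (high-fat over low-fat) of each measured gene in the 8 components (orange, 7 measured) and in the 8 other pathway lists (dark points), with the median of each list as a vertical bar and dashed lines at 2-fold. Medians lie between -0.19 and 0.10 except for the genes that insulin raises, at -0.83.

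The scale of the ratios changed the sign of 1 measured member, Insr, under a single alternative. Under quantile normalization, loess, no centring and centring on the hybridization controls, the 11 measured probe sets kept their sign. With a pseudocount of 50, Insr moved to 0.02 and Akt2 1368832_at to 0.00, and Pik3ca 1374232_at to 0.32.

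**Figure D5:**
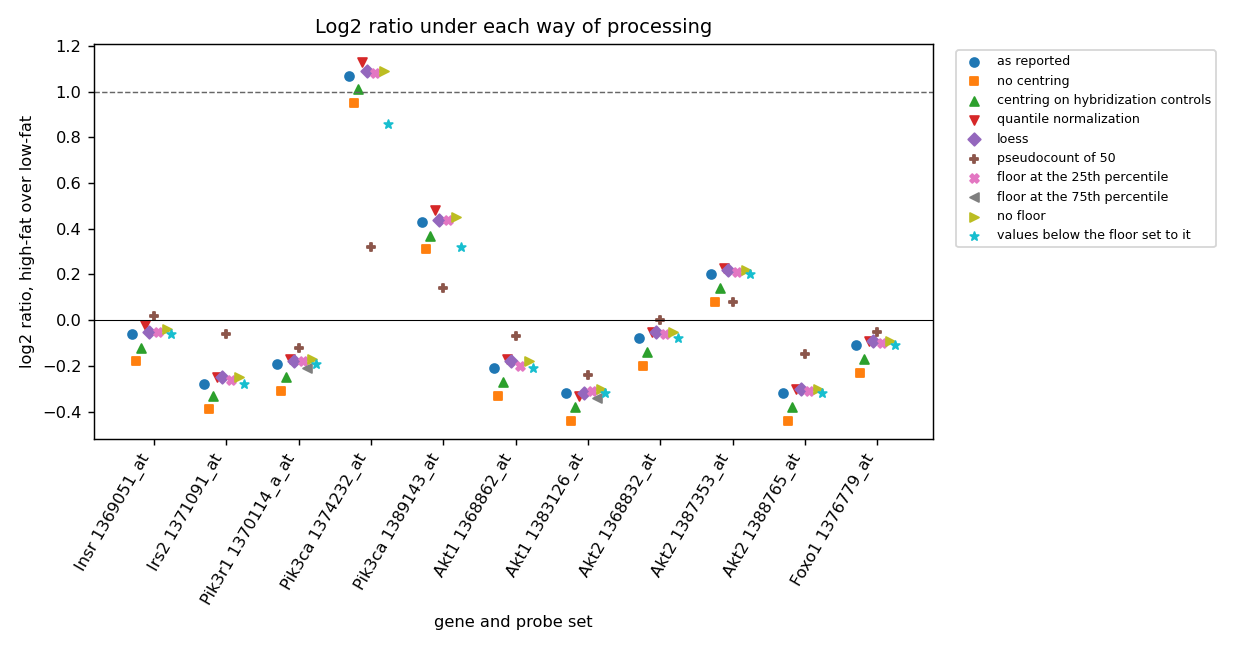
Log2 ratio (high-fat over low-fat) of the 11 measured probe sets as reported and under 9 alternatives that give a ratio per probe set, with a dashed line at 2-fold. Ratios of 1374232_at for Pik3ca span 0.32 to 1.13 and cross the line, while the other 10 probe sets stay between -0.44 and 0.48.

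Markers of liver and other cell types were read beside these values. All 7 hepatocyte markers on the array were measured, with summed signals of 25488.8 on the high-fat array and 25472.7 on the low-fat array. After centring, all 7 were higher on the high-fat array, with a median log2 ratio of 0.14, where 3004 of all 6012 measured genes were higher. This count rests on the centring. The deposited signals of Ttr (4482.8 and 4553.4), Apoa1 (3910.0 and 4161.3) and Cps1 (1572.5 and 1657.9) were lower on the high-fat than the low-fat array. Those of the other hepatocyte markers were higher. The insulin genes Ins1 and Ins2 were below both floors, at 10.8 and 1.4 on the high-fat array and 14.2 and 6.5 on the low-fat array. No marker of skeletal muscle (7 on the array) or of lymphocytes and neutrophils (5 on the array) was measured, and of adipocyte markers only Cfd was. Of the pancreatic and bile duct markers, Cela1 and Epcam were the measured ones, at -0.15 and -0.17. The 4 measured stellate cell markers were all lower on the high-fat array, with a median of -0.43. One of them, Col1a2, had a high-fat signal of 13.2, below the floor. The other stellate markers were below both floors and went both ways. Col1a1 (10.4 and 5.2) and Pdgfrb (7.7 and 2.4) had more signal on the high-fat than the low-fat array, and Acta2 and Des less. The summed signal of the 8 on the array was 302.3 on the high-fat array and 404.8 on the low-fat array. Macrophage markers summed to 778.9 on the high-fat array and 890.7 on the low-fat array. After centring 3 of the 4 measured were higher, with a median of 0.05, and Clec4f was at -0.21. In deposited signal Lyz2 (266.3 and 287.2), Csf1r (47.1 and 47.6) and Clec4f were lower on the high-fat than the low-fat array, and Cd68 was higher. Endothelial markers summed to 277.0 on the high-fat array and 293.9 on the low-fat array, and the 2 measured, Kdr and Eng, were at -0.03 and 0.33. The part of cell composition in the ratios of the insulin signalling genes was not tested, and in whole liver fewer cells of a type and less RNA per cell cannot be told apart.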

How the data were processed

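Total RNA of rat liver was measured on 1 array per diet. The deposited values are signal intensities, 1 for each probe set on each array, and were taken as linear because they are never negative and reach 9255.6 on the high-fat array and 9119.2 on the low-fat array. The authors' steps from image to intensity, and any detection calls, were not given in the sources used. Of 15923 probe sets, 57 controls and 4 with a signal of 0 were left out. Symbols came from the platform annotation, and 12783 probe sets had 1 symbol, 312 several and 2771 none. Of those with 1 symbol, 12748 were found by Entrez identifier in the gene table of assembly GRCr8, and none changed.

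Log2 values were taken without a pseudocount, and ratios were centred as described. A gene was represented by its brightest measured probe set on average over both arrays. Robust SDs were taken in 10 equal bins of mean signal, and where 1 array was below its floor the fold was taken against that floor. Alternatives were no centring, centring on 18 hybridization control probe sets (shift -0.061), quantile normalization, loess (fraction 0.4), a pseudocount of 50, floors at the 25th and 75th percentile or none, low values set to the floor, and the median over probe sets. The genes named were every member, up to 4 measured genes per list with the largest ratio, any past 2-fold, and Pck1, Igfbp1 and Srebf1. Levels of different probe sets were used to choose the brightest, to set signals against the array medians and to sum markers, and were not otherwise compared. Promoter matches of other members are not reported here. The members and lists were chosen with earlier results of these data known. The steps were tested on simulated data, with changes planted only in the brighter measured probe sets. That test does not address recovery of a change at the low signals of most members. The work used Python 3.11.15 with pandas 2.3.3, numpy 2.4.6, statsmodels 0.14.6 and scipy 1.17.1.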

Additional observations from a re-analysis of the deposited data

How the results depend on the processing

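The 7 measured genes gave 6 lower and 1 higher, with 1 past 2-fold by its measured ratio. None was past 2-fold (a count of 0) without centring, with a pseudocount of 50, with values below the floor set to it, with the median over probe sets, or with the floor at the 75th percentile. That floor left 2 measured genes, 0 higher and 2 lower, because fewer genes reached it. The count of higher genes was 2 with the floor at the 25th percentile and with no floor, where 8 genes including Irs1 entered, and 2 with the pseudocount of 50. The median was -0.31 to -0.06 over the 10 alternatives. Of the other values, 289 stayed within the bounds set for them and 41 did not, mostly counts over the pathway lists under other floors. No paired analysis was possible because there was 1 array per diet and no replicate numbers. Low signal limits Insr, Irs1 and Pik3ca most, and the number of arrays limits every value.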
